A study of Arabidopsis thaliana with 6 samples.

Results

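The transcripts described are those of 10 genes for ABCG proteins, a subfamily of ATP-binding cassette transporters in Arabidopsis thaliana: ABCG1, ABCG2, ABCG6, ABCG11, ABCG12, ABCG16, ABCG17, ABCG18, ABCG20 and ABCG32. They were selected by gene identifier from their known or presumed roles in lipid export, with earlier results of these data known, and all 10 were found among the 32833 identifiers of the deposited count files. Libraries came from 2 genotypes, wild type (Col, written WT) and a line carrying mutant alleles named myb68 and myb84, with 3 libraries each. MYB68 and MYB84 encode related R2R3 MYB transcription factors, and the study asks how they act on the laying down of suberin. Each library was made from at least 40 pooled plants grown without treatment on plates at 22 °C in constant light, and RNA was taken from the top 2 cm of the primary root at 18 days. The sample labels name myb84, but the series' own description writes MYB86 once, and which is meant was not tested here. The labels do not say what kind of mutation each allele is, and no line with a single allele or a rescued line was analysed here.

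Suberin, cutin and cuticular wax are lipid barriers built outside the plasma membrane, and their fatty acyl building blocks have to leave the cell to reach the wall. ABCG proteins are plasma membrane pumps that are thought to carry such lipids out. Most of the members are half-size transporters, with a single ATP-binding domain and a single membrane domain, which work as dimers, while ABCG32 is full-size. In an Arabidopsis root this old, suberin lies in the endodermis and in the cork (phellem) that replaces the outer layers during radial growth. ABCG1, ABCG2, ABCG6, ABCG16 and ABCG20 form the clade linked by mutants to suberin in roots and seed coats and to the pollen wall. ABCG11 is needed for cutin and wax export and acts also in suberin, ABCG12 (CER5) exports wax, ABCG32 (PEC1) is needed for cutin, and ABCG17 and ABCG18, close relatives beside ABCG16 on chromosome 3, have been described as importers of abscisic acid.

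Of the genes named in the genotype, MYB84 had 8.96, 7.84 and 12.9 CPM (counts scaled to a common library size by TMM) in WT 1, 2 and 3, against 5.94, 4.90 and 7.17 CPM in myb68 myb84 1, 2 and 3, and it was lower in the mutant (log2 fold change -0.70, edgeR adjusted p = 0.0442). Leaving out WT 1 (adjusted p = 0.0855), WT 3 (0.116), myb68 myb84 1 (0.126) or myb68 myb84 2 (0.149) ended that call, as did limma-voom (0.0613). MYB68 had 49.3, 49.5 and 62.3 CPM in wild type and 60.8, 67.7 and 74.8 CPM in the mutant and did not pass (log2 fold change 0.34, adjusted p = 0.0613). In fits without a replicate block it passed as higher without WT 3 (0.00666), without myb68 myb84 1 (0.0471), with no low-count filter (0.0407) and in DESeq2 (0.0317). Its transcript level thus gives no check of the label. Library totals ran from 19446419 to 55907128 counts. Root markers were abundant in all libraries, with 2 of 6 listed genes called higher, 0 lower and a summed level of 13170 to 15220 CPM in wild type and 12060 to 14280 CPM in the mutant. Markers of endodermis, xylem and phloem had summed ranges that overlapped between the genotypes, with 1 endodermis gene called higher, and of these lists only the phloem gene RTM1 was at 0 in all libraries. The 12 photosynthesis genes summed to 2184 to 3584 CPM in wild type and 4170 to 4747 CPM in the mutant, with 4 called higher and 0 lower. The largest part was CAB1 (means of 1506 and 1975 CPM), which did not pass (edgeR adjusted p = 0.212). RBCS2B went the other way and did not pass (log2 fold change -2.45, adjusted p = 0.137). The 4 markers of shoot epidermis summed to 85.5 to 105 CPM in wild type and 60.8 to 64.3 CPM in the mutant, with 2 called lower and 0 higher. Over all tested genes 4.66% were called higher and 3.65% lower. The sums of both lists thus differed between the genotypes without overlap, and their part in the results on the ABCG genes was not tested. In whole root segments, fewer cells of a type and less RNA per cell cannot be told apart.

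Most of the tested ABCG members were lower in myb68 myb84, but how many were called depended on single libraries. Of the 10 members, 7 had enough counts to be tested, and 5 of these fell (ABCG6, ABCG1, ABCG20, ABCG12 and ABCG32), 0 rose and 2 did not pass (ABCG11 and ABCG16). Over all 20941 tested genes 8.3% were called, 3.65% lower and 4.66% higher, by the same edgeR quasi-likelihood test at an adjusted p under 0.05. The median log2 fold change was -0.38 over the 7 tested members and -0.0026 over all tested genes. In 6 of the 7 every mutant library lay below every wild-type library, which held for 13.2% of all tested genes. ABCG2, ABCG17 and ABCG18 had too few counts for a test. When any single library was left out, only 0 to 3 members were called lower.

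**Figure D1:**
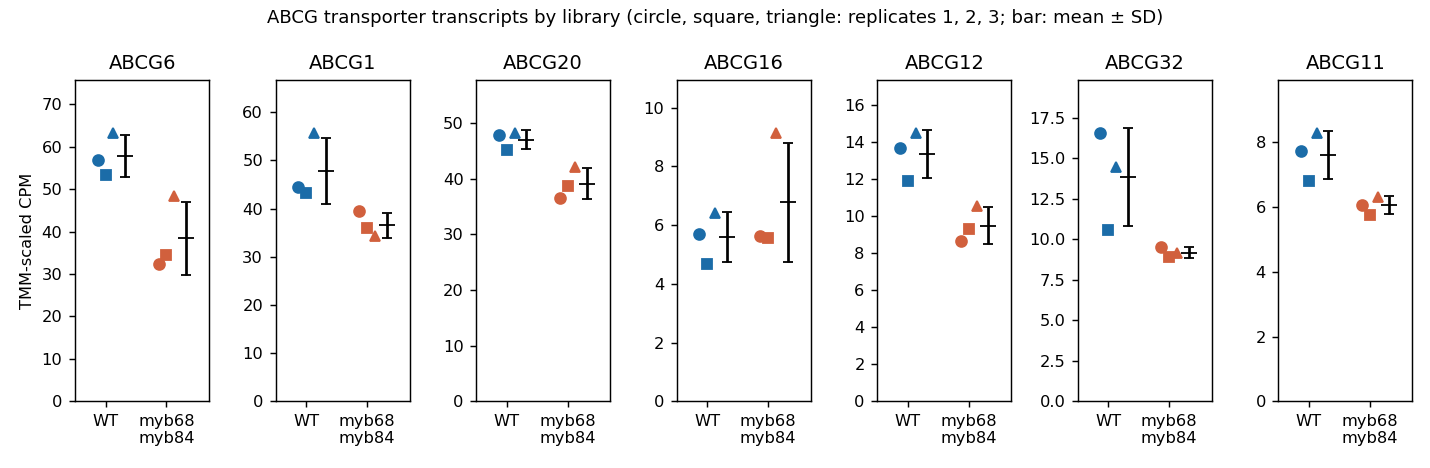
TMM-scaled CPM (vertical axes from 0, a scale for each gene) of the 7 tested ABCG genes in each library, with wild type in blue and myb68 myb84 in red, symbols for replicates 1 to 3 and bars for the mean ± SD of 3 libraries. All mutant points lie below all wild-type points except for ABCG16, where myb68 myb84 3 stands alone at 9.13 CPM.

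The 3 abundant members of the suberin clade all fell, with 95% intervals of the log2 fold change that overlapped (-0.91 to -0.25 for ABCG6, -0.60 to -0.17 for ABCG1 and -0.43 to -0.10 for ABCG20). ABCG6 (AT5G13580, chromosome 5, 4370692 to 4373201, plus strand), a half-size transporter of root suberin, had 56.8, 53.3 and 63.1 CPM in WT 1, 2 and 3, against 32.4, 34.5 and 48.3 CPM in myb68 myb84 1, 2 and 3. The groups did not overlap, and myb68 myb84 3 stood well above the other mutant libraries. Its mean went from 57.8 ± 4.97 to 38.4 ± 8.67 CPM (SD, n = 3 each), or 66.4% of wild type (log2 fold change -0.58, SE 0.15, edgeR adjusted p = 0.0422). Without myb68 myb84 3 the change was -0.79 with an adjusted p of 0.000667. The call ended without any other single library (adjusted p = 0.104, 0.0953 and 0.106 without WT 1, 2 and 3, and 0.0826 and 0.129 without myb68 myb84 1 and 2) and with no low-count filter (0.0746).

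ABCG1 (AT2G39350, chromosome 2, 16430085 to 16432751, minus strand), which acts in root suberin and, with ABCG16, in the pollen wall, had 44.6, 43.2 and 55.6 CPM in WT 1, 2 and 3, against 39.4, 35.9 and 34.3 CPM in myb68 myb84 1, 2 and 3. Here WT 3 was the high library, and myb68 myb84 3 was the lowest of all, the reverse of its place for ABCG6. The mean went from 47.8 ± 6.82 to 36.6 ± 2.59 CPM, or 76.5% of wild type (log2 fold change -0.38, SE 0.10, edgeR adjusted p = 0.0312). Leaving out WT 1 (0.0521), WT 3 (0.0834), myb68 myb84 2 (0.102) or myb68 myb84 3 (0.130) ended the call, and the change without WT 3 was -0.26. Its exons share 24 bases with the gene SAC3A on the other strand, 0.97% of its exon length.

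ABCG20 (AT3G53510, chromosome 3, 19837148 to 19839983, minus strand), the third abundant suberin member, had 47.8, 45.1 and 48.1 CPM in WT 1, 2 and 3, against 36.5, 38.7 and 42.0 CPM in myb68 myb84 1, 2 and 3. The groups did not overlap, and the mean went to 83.2% of wild type, from 47.0 ± 1.67 to 39.1 ± 2.79 CPM (log2 fold change -0.27, SE 0.08). Its edgeR adjusted p of 0.04995 lay just under the threshold, and it passed in 0 of the 6 fits with a library left out (0.151, 0.0529 and 0.104 without WT 1, 2 and 3, and 0.166, 0.145 and 0.0597 without myb68 myb84 1, 2 and 3). It also missed in limma-voom (0.0533) and in thinned libraries (0.0696).

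ABCG16 (AT3G55090, chromosome 3, 20416183 to 20418910, minus strand), which acts with ABCG1 in the pollen wall, had 5.71, 4.68 and 6.40 CPM in WT 1, 2 and 3, against 5.65, 5.55 and 9.13 CPM in myb68 myb84 1, 2 and 3. The genotypes overlapped, and myb68 myb84 3 was the only mutant library above WT 3. The log2 fold change was 0.29 with a 95% interval of -0.15 to 0.74 (SE 0.21, edgeR adjusted p = 0.457). Without myb68 myb84 3 it was 0.0050 (adjusted p = 0.994).

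ABCG1 and ABCG16 had 81.0% identical bases over the aligned coding sequence, and ABCG2 and ABCG20 had 82.2%, the highest identities among the pairs of members. No stretch of 50 bases in the exons of any of these 4 genes, or of ABCG6, recurred elsewhere in the genome. Among all members such repeats were found only in ABCG18, for 1.43% of its stretches. The 250 bases upstream of the annotated start are shown for the 3 suberin members that fell and for ABCG16, the near relative of ABCG1 that did not pass, 5′ to 3′ on the gene's own strand in TAIR10.1: chr5:4370442-4370691 (plus) for ABCG6, chr3:19839984-19840233 (minus) for ABCG20, chr2:16432752-16433001 (minus) for ABCG1 and chr3:20418911-20419160 (minus) for ABCG16. Capitals mark the motifs searched on both strands, which were the AC elements, known as sites of R2R3 MYB factors (ACCAAAC, then ACCAACC, then ACCTAAC, then ACCTACC), and the core ACGTG of abscisic acid response elements and G-boxes.
ABCG6: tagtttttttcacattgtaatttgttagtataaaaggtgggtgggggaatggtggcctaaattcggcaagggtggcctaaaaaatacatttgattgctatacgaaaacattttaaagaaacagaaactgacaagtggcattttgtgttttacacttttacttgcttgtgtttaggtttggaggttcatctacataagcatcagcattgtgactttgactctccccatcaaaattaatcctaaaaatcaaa
ABCG20: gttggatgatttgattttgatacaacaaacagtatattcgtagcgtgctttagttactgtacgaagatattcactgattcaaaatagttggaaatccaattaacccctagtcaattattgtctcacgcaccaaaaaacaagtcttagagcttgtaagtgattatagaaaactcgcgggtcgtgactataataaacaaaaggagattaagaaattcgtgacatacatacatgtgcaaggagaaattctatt
ABCG1: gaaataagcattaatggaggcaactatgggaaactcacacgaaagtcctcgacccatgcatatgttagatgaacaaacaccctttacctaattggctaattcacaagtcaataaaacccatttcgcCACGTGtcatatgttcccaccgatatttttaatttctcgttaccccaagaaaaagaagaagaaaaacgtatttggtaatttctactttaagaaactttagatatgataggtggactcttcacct
ABCG16: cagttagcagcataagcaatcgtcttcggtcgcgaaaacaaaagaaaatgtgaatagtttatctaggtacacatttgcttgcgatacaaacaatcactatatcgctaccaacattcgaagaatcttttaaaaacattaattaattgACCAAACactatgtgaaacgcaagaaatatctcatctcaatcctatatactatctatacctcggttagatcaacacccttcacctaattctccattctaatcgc
An AC element was present in the windows of 2 of the 10 members, ABCG16 (ACCAAAC) and ABCG2 (ACCTACC), against 13.7% of 27443 windows of protein-coding genes. ACGTG was present in 2 of the 10, ABCG1 and ABCG18, against 22.9% of all windows, and in ABCG1 the match on each strand overlapped in 1 palindrome, CACGTG. The windows of ABCG6 and ABCG20 held none of these letters, and nothing on binding follows from a match or its absence.

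Summed per exon length, the suberin clade stood at 59.6, 56.3 and 67.0 CPM per kb in WT 1, 2 and 3, against 43.8, 44.0 and 51.3 CPM per kb in myb68 myb84 1, 2 and 3. ABCG6 made up 38.0%, 37.7% and 37.6% of this sum in WT 1, 2 and 3, the largest share in each. In the mutant it made up 29.5% and 31.2% in replicates 1 and 2, where ABCG1 held the largest share (36.4% and 33.1%), and 37.5% in replicate 3. The share of ABCG16 was 3.05% to 3.51% in wild type and 4.63% to 6.52% in the mutant. ABCG2 could not be read in this sum, for the reason given with its counts.

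**Figure D2:**
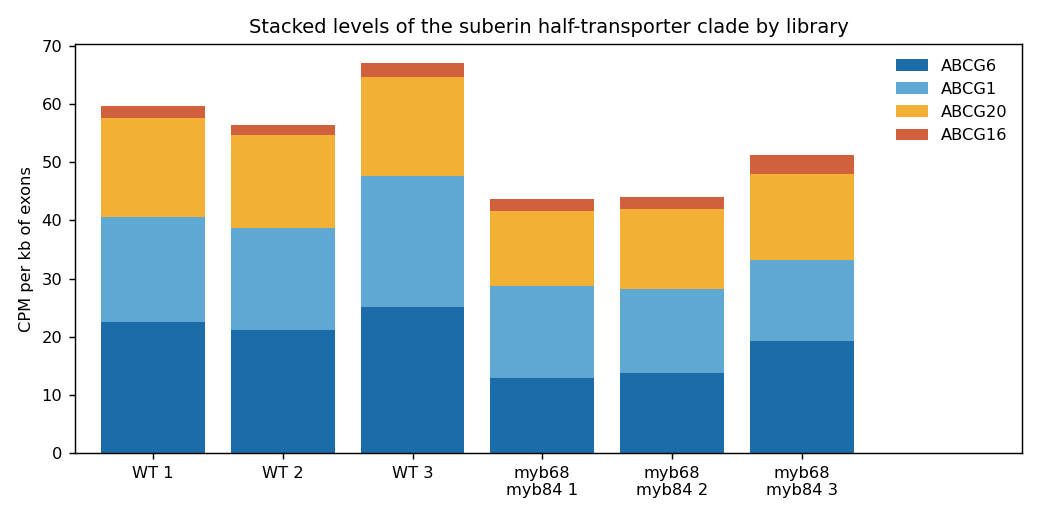
Stacked levels in CPM per kb of exons (vertical axis from 0) of ABCG6, ABCG1, ABCG20 and ABCG16 in each of the 6 libraries. The stacks reach 56.3 to 67.0 CPM per kb in wild type and 43.8 to 51.3 CPM per kb in the mutant, and the ABCG6 segment shrinks most in myb68 myb84 1 and 2.

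Ratios between 2 transcripts of the same library do not depend on its scaling, and 6 pairs were compared. The log2 ratio of ABCG6 to ABCG16 counts was 3.31, 3.51 and 3.30 in WT 1, 2 and 3, against 2.52, 2.63 and 2.40 in myb68 myb84 1, 2 and 3, a difference of -0.85. This was the widest of the 6 differences, and unlike the separate levels it was alike in all 3 mutant libraries. ABCG6 to ABCG20 differed by -0.34, ABCG1 to ABCG16 by -0.62 and ABCG11 to ABCG12 by 0.17, each with no overlap between the genotypes. Several pairs share a member, so the 6 ratios are not separate observations. Of all tested genes taken singly, 13.2% lay lower and 14.1% higher without overlap, and no such share was taken over pairs of genes. The ratio of ABCG11 to ABCG32 differed by 0.24, with overlap. ABCG6 to CYP86A1, the fatty acid hydroxylase of root suberin, was -2.04, -2.02 and -1.80 in WT 1, 2 and 3, against -2.25, -2.01 and -1.78 in myb68 myb84 1, 2 and 3. This ratio overlapped fully and differed by -0.061, a value whose sign turned without WT 3 (0.016) or myb68 myb84 1 (0.059). A two-sided exact permutation test gave p = 0.1 for the 4 pairs without overlap, the smallest that 3 against 3 allows (adjusted over the 6 pairs, 0.15), p = 0.2 for ABCG11 to ABCG32 and p = 1.0 for ABCG6 to CYP86A1 (adjusted, 0.24 and 1.0).

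Among the members of cutin and wax export, ABCG32 and ABCG12 fell. ABCG32 (AT2G26910, chromosome 2, 11481326 to 11488270, plus strand), needed for cutin in the shoot, had 16.5, 10.6 and 14.5 CPM in WT 1, 2 and 3, against 9.52, 8.89 and 9.13 CPM in myb68 myb84 1, 2 and 3. The mutant libraries lay close together and just below WT 2, while the wild-type libraries were spread. The mean went from 13.9 ± 3.02 to 9.18 ± 0.32 CPM, or 66.2% of wild type (log2 fold change -0.60, SE 0.15, edgeR adjusted p = 0.0244). The call ended without WT 1 (-0.44, 0.138) or without myb68 myb84 1 (0.0648), 2 (0.0861) or 3 (0.0854), and the adjusted p was 0.00387 without WT 2.

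ABCG12 (AT1G51500, chromosome 1, 19097712 to 19101265, minus strand), the exporter of stem wax, had 13.7, 11.9 and 14.5 CPM in WT 1, 2 and 3, against 8.64, 9.30 and 10.6 CPM in myb68 myb84 1, 2 and 3. The groups were apart, and the mean went from 13.4 ± 1.32 to 9.50 ± 0.98 CPM, or 71.1% of wild type (log2 fold change -0.49, SE 0.12, edgeR adjusted p = 0.0276). It lost its call with WT 1 dropped (0.101), with WT 3 dropped (0.0672) and with either myb68 myb84 1 (0.102) or 2 (0.0926) dropped.

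ABCG11 (AT1G17840, chromosome 1, 6142402 to 6146521, plus strand), the partner with which ABCG12 can form a dimer, had 7.72, 6.81 and 8.28 CPM in WT 1, 2 and 3, against 6.06, 5.77 and 6.33 CPM in myb68 myb84 1, 2 and 3. The groups did not overlap, but the difference of -0.32 (SE 0.14, 95% interval -0.62 to -0.028) did not pass over all genes (edgeR adjusted p = 0.182). It was negative in all 14 alternative fits, from -0.39 to -0.26, and passed in 0 of them. Of its exon bases 31.96% are shared with exons of AT1G05337 and AT1G17850 on the other strand.

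The counts of the 3 remaining members were near 0. ABCG17 (AT3G55100, chromosome 3, 20420279 to 20423114, minus strand) had 2, 10 and 6 reads in WT 1, 2 and 3, against 10, 2 and 6 reads in myb68 myb84 1, 2 and 3, which is 18 in each genotype and a ratio of mutant to wild type of 0.763 (95% counting interval 0.374 to 1.55). ABCG18 (AT3G55110, chromosome 3, 20424550 to 20427384, minus strand) had 10 reads in WT 1, 4 in myb68 myb84 2 and 0 in the other 4 libraries. Neither shares exon bases with another gene. In the shallowest library a count of 0 allows up to 0.154 CPM by the limit of 3 reads, and up to 0.1897 CPM by the exact 95% interval. Every non-zero count of both genes was even, as it was for ABCG2 and for several, but not all, other ABCG genes with few reads. The intervals take each count as independent and would be too narrow if reads were counted in pairs, which was not tested. A difference between the genotypes was not detectable at this depth for either gene.

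ABCG2 (AT2G37360, chromosome 2, 15673410 to 15675920, minus strand), a member of the suberin clade, had 2 reads in WT 3, 2 in myb68 myb84 3 and 0 in the other 4 libraries. Of its exon bases 95.3% are shared with exons of AT2G37362, a long non-coding RNA annotated on the other strand that also had near 0 counts (0.013 and 0.024 CPM in wild type and mutant). Among protein-coding genes with at least 90% of their exon bases shared with other genes, 526 of 539 (97.6%) had 10 or fewer counts over the 6 libraries, against 4390 of 19961 genes with no shared base (22.0%). The low count of ABCG2 therefore cannot be read as a low transcript level.

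Compared per kb of exons, the members fell into a high, an intermediate and a low class. In wild type ABCG6 led with 23.0 ± 1.98 CPM per kb, followed by ABCG1 with 19.3 ± 2.76 and ABCG20 with 16.6 ± 0.59 CPM per kb. The ranges of ABCG6 and ABCG1 overlapped, and those of ABCG1 and ABCG20 did not. ABCG12 came next, apart from its neighbours on both sides, with 5.12 ± 0.51 CPM per kb. ABCG32, ABCG11 and ABCG16 followed with 2.80 ± 0.61, 2.37 ± 0.23 and 2.05 ± 0.32 CPM per kb, each overlapping the next. Per kb of unshared exons, ABCG11 stood at 3.48 ± 0.34 CPM, above ABCG32. That value takes no counted read to lie on shared bases, which is not known here. In the mutant the ranges of ABCG6, ABCG1 and ABCG20 overlapped, at 15.3 ± 3.45, 14.8 ± 1.05 and 13.8 ± 0.98 CPM per kb. ABCG12 had 3.64 ± 0.38 CPM per kb there, and ABCG16, whose range overlapped it, had 2.48 ± 0.75, ahead of ABCG11 (1.89 ± 0.087) and ABCG32 (1.85 ± 0.065).

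**Figure D3:**
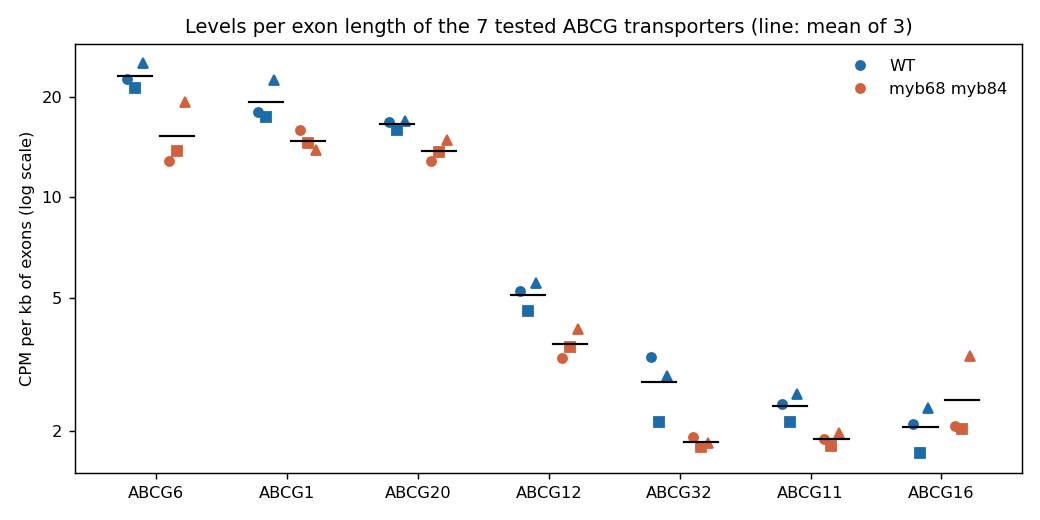
Levels of the 7 tested members in CPM per kb of exons (logarithmic vertical axis), ordered by the wild-type mean, with a point for each library (symbols for replicates 1 to 3) and a line at the mean of 3. ABCG6, ABCG1 and ABCG20 lie between 12.9 and 25.2 CPM per kb in all libraries, and the other members lie at 5.54 CPM per kb or lower.

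The number of members called lower depended on single libraries. It was 0 without WT 1 and without myb68 myb84 2, 1 without WT 3 and without myb68 myb84 1, 2 without myb68 myb84 3 and 3 without WT 2. In the same fits the number of all genes called lower was 435 to 723, against 764 with all libraries. With all 6 libraries, 5 members were called lower by DESeq2 and with the replicate block, where 4.41% and 4.37% of all tested genes were. In limma-voom, with no low-count filter and in thinned libraries 4 were, where 3.91%, 3.2% and 3.54% of all tested genes were. The log2 fold changes themselves kept their sign in all 14 alternative fits for each of the 7 tested members, and ranged from -0.79 to -0.47 for ABCG6, -0.76 to -0.44 for ABCG32, -0.57 to -0.42 for ABCG12, -0.44 to -0.26 for ABCG1 and -0.32 to -0.22 for ABCG20.

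**Figure D4:**
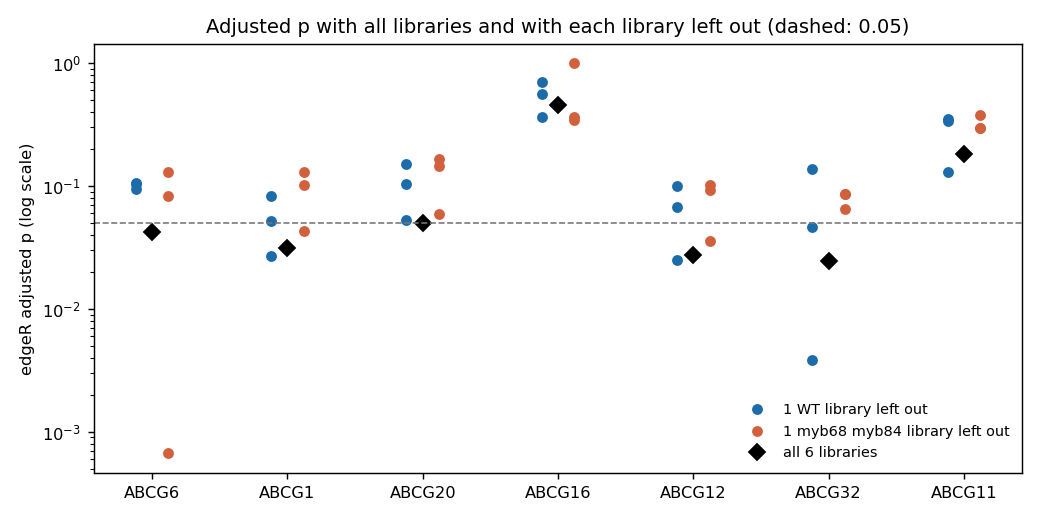
Benjamini-Hochberg adjusted p of edgeR (logarithmic vertical axis) for the 7 tested members, with all libraries (black diamonds), with 1 wild-type library left out (blue) and with 1 mutant library left out (red), and the threshold of 0.05 dashed. ABCG6 drops to 0.000667 without myb68 myb84 3, while ABCG20 lies above the threshold in 6 of 6 fits.

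The rest of the ABCG subfamily did not move in a common direction. Of the 33 other ABCG genes 28 were tested, 2 rose, 1 fell and 25 did not pass, with a median log2 fold change of 0.0070. These calls were few beside the shares of all 20941 tested genes, 4.66% called higher and 3.65% lower, and were not tested against them. ABCG22, linked to water loss through stomata in leaves, had 4.15, 3.88 and 4.72 CPM in WT 1, 2 and 3, against 7.51, 8.67 and 9.66 CPM in myb68 myb84 1, 2 and 3 (log2 fold change 1.03, edgeR adjusted p = 0.00115). ABCG7 rose by 0.51 on the log2 scale (adjusted p = 0.00572), and it overlaps an annotated gene on the same strand. ABCG23 fell by 0.47 on the log2 scale, from 17.7 ± 0.75 to 12.7 ± 0.92 CPM (adjusted p = 0.0112). These 3 calls held whichever of the 6 libraries was dropped.

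In 3 lists of enzymes and carriers of the transported lipids, genes were also called lower and 0 higher, and no test compared their changes with those of the transporters. Over all tested genes 3.65% were called lower and 4.66% higher, with a median log2 fold change of -0.0026. In the suberin list 11 of 14 tested enzyme genes fell, 0 rose and 3 did not pass, with a median of -0.49. The reductase FAR1, the elongase KCS20 and the hydroxylase CYP86A1 fell by 0.48, 0.58 and 0.55 on the log2 scale (edgeR adjusted p = 0.000804, 0.000944 and 0.00108). In the cutin list 5 of 11 fell and 0 rose, with a median of -0.39. The acyltransferase GPAT6 and the hydroxylases CYP86A2 and CYP86A4 fell by 0.57, 0.48 and 0.77 on the log2 scale (adjusted p = 0.0067, 0.00923 and 0.0157). Of 10 tested wax genes 5 fell and 0 rose, and the median was -0.52. Log2 fold changes were -1.53 for KCS6 and -0.40 for KCS1, both elongases, and -0.51 for the lipid transfer protein LTPG1 (adjusted p = 0.00244, 0.00411 and 0.0107). The calls of CYP86A4 ended without any single mutant library (adjusted p = 0.0544, 0.0528 and 0.0511 without replicates 1, 2 and 3), and that of LTPG1 without myb68 myb84 2 (0.0515). Without WT 1 and without WT 3 there were 3 cutin and 3 wax calls, without myb68 myb84 2 there were 2 of each, and without myb68 myb84 1 there were 2 cutin calls. In these fits 435 to 723 of all tested genes were called lower, against 764 with all libraries. FAR1, CYP86A2 and LTPG1 overlap genes annotated on the other strand.

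**Figure D5:**
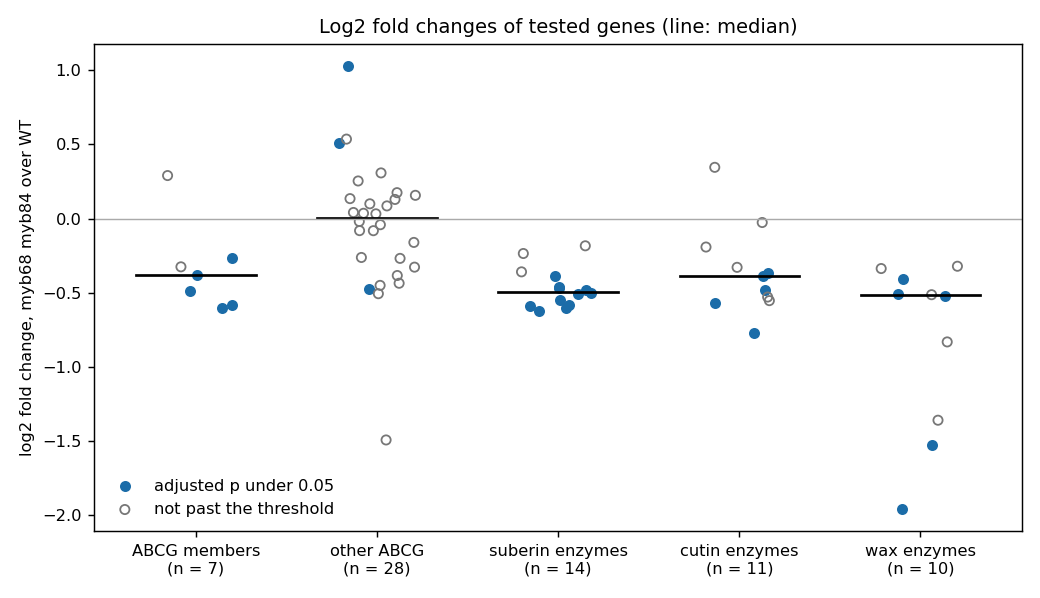
Log2 fold changes (myb68 myb84 over wild type, vertical axis) of the tested genes in 5 lists, with filled points for genes past an adjusted p of 0.05 and a line at each median. The medians are -0.38 for the ABCG members, 0.0070 for the other ABCG genes, and -0.49, -0.39 and -0.52 for suberin, cutin and wax enzymes.

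The order of the libraries was compared between the members and the enzyme lists. The median of the log2 CPM values of the 7 tested members, each centred on its mean over the 6 libraries, was 0.18, 0.052 and 0.35 in WT 1, 2 and 3, against -0.22, -0.21 and -0.085 in myb68 myb84 1, 2 and 3. The suberin enzymes had medians of 0.28, 0.20 and 0.24 in WT 1, 2 and 3, against -0.31, -0.34 and -0.099 in myb68 myb84 1, 2 and 3. The cutin enzymes had 0.21, 0.067 and 0.28 in WT 1, 2 and 3, against -0.20, -0.32 and -0.078 in myb68 myb84 1, 2 and 3, and the wax genes 0.20, 0.29 and 0.28, against -0.23, -0.30 and -0.12. By these medians myb68 myb84 3 was the mutant library nearest to wild type in all 4 lists. Among the members this held for ABCG6, ABCG20, ABCG11 and ABCG12. In that library ABCG1 was at its lowest (-0.27) and ABCG16 at its highest (0.55), and ABCG32 was nearer in myb68 myb84 1 (-0.22 against -0.28). No such median was taken over all tested genes. The order within wild type differed, with WT 2 lowest for members, suberin and cutin enzymes and highest for the wax genes, and with WT 1 highest for the suberin enzymes.

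The genes most like ABCG6 and ABCG32 over the 6 libraries were ranked among 17982 tested genes with a mean of at least 2 CPM, by the root-mean-square difference of centred log2 CPM. Nearest to ABCG6 were PAL4, a phenylalanine ammonia-lyase gene (0.065), AT5G55520 (0.070) and AT5G51890 (0.073), against a median of 0.375 over all these genes. Among the members, ABCG12 was nearest to ABCG6 (0.124) and ABCG16 the farthest (0.424). Nearest to ABCG32 were the YUCCA gene YUC3 (0.044), sks15 (0.079) and AT5G45460 (0.092), against a median of 0.35. These are likenesses over 6 libraries of 2 genotypes, and they were given no test.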

How the data were processed

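RNA of 6 Arabidopsis root libraries was sequenced, 3 of wild type and 3 of myb68 myb84, grouped by their titles. The deposited files hold raw counts per gene and library, as made by the authors. Per the submitters' processing notes the tools were Trim Galore, HISAT, featureCounts and DESeq2 with the build TAIR10. Not given in the sources used here: versions, annotation release, strand setting and the handling of reads that fall on several genes or places.

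From the counts, edgeR 4.0.16 in R 4.3.3 was fitted to all genes, with TMM scaling, filterByExpr (minimum count 10), robust quasi-likelihood F tests, genotype as the only term and Benjamini-Hochberg adjustment over 20941 genes. Fold changes are mutant over wild type, SE is the fold change over the square root of F, and levels are TMM-scaled CPM. P-values measure the spread between pools. Counting intervals (exact, 95%) and the limit of 3 reads for a count of 0 cover counting error only and take each count as independent.

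Levels between genes are per kb of merged exons of TAIR10.1, where 32548 of the 32833 identifiers were found. The chromosome sequences and coordinates shown are RefSeq's for this build. Centred log2 values used a pseudocount of 0.5 CPM and ratios a prior count of 0.5 reads. The alternatives were DESeq2 size factors, upper-quartile scaling, no filter and a stricter filter (1 CPM in 3 libraries), DESeq2 1.42.0, limma-voom (limma 3.58.1), a replicate block, thinning to 19446419 counts, each library left out, and the longest transcript, unscaled totals and a prior of 2 reads for levels and ratios. Levels per unshared exon were added after seeing the data.

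The named genes are the 10 members, MYB68 and MYB84, called genes of the ABCG subfamily, up to 3 called genes with the smallest adjusted p of each enzyme list and the 3 genes nearest to ABCG6 and to ABCG32. Some marker genes are named beside the sum of their list. Members and lists were chosen with earlier results of these data known. The script was tested on simulated counts with known changes. It recovered 69 of 100 changes of 1.5-fold and 96 of 100 changes of 2-fold, and 12 of its 177 calls were false.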

Additional observations from a re-analysis of the deposited data

How the results depend on the processing

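The 5 ABCG genes called lower became 0 to 3 when 1 library was left out, and 4 or 5 under the other 8 alternatives, with 0 called higher in all of them. Leaving out a library gave 579 to 947 genes called higher and 435 to 723 lower over all tested genes, 2 to 5 cutin and 2 to 5 wax enzyme genes lower, and 1 to 2 other ABCG genes lower. Other ABCG genes called lower were 2 with upper-quartile scaling, no low-count filter, DESeq2 and thinned libraries, and the cause was not tested. The log2 ratio of ABCG6 to CYP86A1 ranged from -0.18 to 0.059 with a library left out and turned sign without WT replicate 3 (0.016) and without myb68 myb84 replicate 1 (0.059). Suberin enzyme calls stayed at 9 to 11. The level of ABCG11 moved to 3.48 CPM per kb of unshared exons because of the shorter length, with no counted read taken to lie on shared bases.

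Whether replicate numbers pair the libraries was not settled. Deviations of same-numbered libraries over all tested genes correlated at -0.006, 0.024 and 0.084. Those of differently numbered libraries correlated at -0.065 to 0.034. The fit with the replicate block called 5 members lower and 0 higher, 1154 genes higher and 915 lower over all genes, and 3 other ABCG genes higher and 1 lower, and it also called MYB68 higher (adjusted p = 0.00999). In that fit the SE of ABCG6 was 0.086 (edgeR adjusted p = 0.000637), against 0.15 without the block. The SE of ABCG11 went the other way, from 0.137 to 0.144. For MYB84 the edgeR adjusted p was 0.0054 with the block. At 0 to 10 reads a library, ABCG2, ABCG17 and ABCG18 give only wide intervals, and with no low-count filter, where all 10 members were tested, none of these 3 passed.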
